A study of Mus musculus with 6 samples.

Results

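The strong distal elements of wildtype natural killer (NK) cells are the accessible regions that lie over 5 kb from the nearest transcription start site and carry a mean wildtype signal of at least 2000 normalized reads. Of the 51775 consensus peaks of the experiment, 35667 were distal by this distance and 1101 of them met the signal limit. The assay was ATAC-seq: a transposase cuts where chromatin is open and tags the cut ends, so that read number over a region reports how open it is. The cells were spleen NK cells of C57BL6 mice, sorted as CD3-, CD5-, NK1.1+ and NKp46+. The wildtype group and the Rroid deficient group held 3 libraries each, with no treatment named. Rroid is a long non-coding RNA gene near Id2, which encodes a repressor of E proteins that innate lymphoid cells need. The labels say that 50000 cells of each genotype went into transposition, in triplicate, and do not say whether that number is per library. The labels give no age or sex, do not say how the deficiency was made or whether it was limited to certain cells, and do not say whether libraries came from separate animals. The p-values therefore measure the spread between these libraries, which may be technical.

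Distal accessible elements are mostly enhancers, silencers and insulator sites, where transcription factors bind and keep nucleosomes away. In NK cells, such elements near cytotoxicity, receptor and chemokine genes are bound by factors of the T-box, RUNX, ETS and STAT families. A strong ATAC-seq signal at a distal site means that the site is open in many of the cells, or very open, and does not by itself name the gene it serves. The nearest gene given here is an assignment by distance.

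The promoters of St5, Adrb1 and Ccl3 are printed because the strong distal element and the promoter peak of the same gene were both lower in Rroid-deficient cells, and their values follow further on. Each line holds the 250 bases before the start site, 5′ to 3′ on the gene's strand, from RefSeq on GRCm38.p6. St5 (listed there as Denn2b) is at chr7:109616569-109616818 on the minus strand, Adrb1 at chr19:56721867-56722116 on the plus strand and Ccl3 at chr11:83649379-83649628 on the minus strand. Capitals in the Ccl3 line mark an ETS core, read as GGAAGT on the other strand, and a RUNX core, TGTGGT. No such letters, and none of TCACAC (T-box), CAGCTG (E-box) or TGACTCA (AP-1), were found on either strand of the St5 and Adrb1 windows.
St5: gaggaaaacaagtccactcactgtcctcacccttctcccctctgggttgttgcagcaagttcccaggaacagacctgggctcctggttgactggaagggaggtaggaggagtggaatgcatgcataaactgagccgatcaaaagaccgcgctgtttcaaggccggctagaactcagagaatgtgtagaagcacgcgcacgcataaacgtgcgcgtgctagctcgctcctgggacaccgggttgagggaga
Adrb1: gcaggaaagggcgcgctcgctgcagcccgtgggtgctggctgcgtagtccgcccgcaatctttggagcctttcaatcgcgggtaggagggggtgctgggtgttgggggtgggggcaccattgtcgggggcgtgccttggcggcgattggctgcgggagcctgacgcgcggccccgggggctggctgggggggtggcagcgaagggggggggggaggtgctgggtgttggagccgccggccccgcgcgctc
Ccl3: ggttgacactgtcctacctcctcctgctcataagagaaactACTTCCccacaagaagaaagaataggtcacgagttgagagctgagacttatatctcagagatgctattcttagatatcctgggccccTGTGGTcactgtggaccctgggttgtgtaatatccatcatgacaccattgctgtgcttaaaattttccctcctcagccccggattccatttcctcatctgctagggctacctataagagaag
The GC content of the windows was 56.0% for St5, 74.0% for Adrb1 and 46.8% for Ccl3. Among 32851 RefSeq promoter windows of this length, GGAAGT occurred in 19.7%, TGTGGT in 14.0%, TCACAC in 12.3%, CAGCTG in 13.0% and TGACTCA in 4.46%, on either strand. A match of letters is a description of the window.

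Mir29b-1 was the nearest gene of 4 strong elements, of which 3 fell, so its mature products are printed as well. The sequences are from RefSeq on GRCm38.p6, with the seed (bases 2 to 8) in capitals. The 3p arm is the form for which the miR-29 family, a regulator of collagen and of T-bet and interferon gamma messages, is known.
miR-29b-3p: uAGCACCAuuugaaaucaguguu
miR-29b-1-5p: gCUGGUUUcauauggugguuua
The seeds of the 2 arms differ, so they form no shared seed group.

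The table names no peak after Rroid, so no peak of the targeted gene could check the labels directly. In its place stand peaks chosen, after values were seen, for their own fall near Id2. Within 500 kb of the Id2 promoter peak, 13 of 62 peaks held at most an eighth of their wildtype signal in Rroid-deficient cells, all between 26000744 and 26079794 on chromosome 12 (mm9). The strongest of them read 1175, 1724 and 1496 in the wildtype libraries and 7.96, 3.81 and 3.63 in the Rroid-deficient ones. None of the 13 was strong enough in wildtype to meet the limit of 2000. Promoter peaks were present for 7 of 7 NK markers, with a summed signal of 20969 to 24367 in wildtype and 16610 to 20197 in Rroid-deficient libraries. Of the 7, those of Klrb1c, Tbx21, Prf1 and Gzmb (means of 3646 and 2066) were lower by limma, and those of Ncr1, Klrk1 and Eomes were not called. Among 7 T-cell markers only Cd3g and Cd5 had one, summing to 97 to 174 in wildtype and 432 to 516 in Rroid-deficient libraries, both higher by limma. No promoter peak was listed for Cd3e, Cd3d, Cd4, Cd8a or Cd8b1. B-cell markers had 2 of 6 (142 to 216 against 206 to 292) and myeloid markers 1 of 6 (251 to 314 against 246 to 293). ILC2 and ILC3 markers had 2 of 5, Gata3 and Il17rb (5642 to 6144 against 5727 to 5793). The part of these cell types in the results was not tested.

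The libraries are named by the numbers of their columns, wildtype 1, 2 and 3 and Rroid-deficient 4, 5 and 6. Reads in peaks ranged from 27572006 in library 4 to 47939665 in wildtype 2. The strong elements took 9.93% to 10.2% of them in wildtype and 9.45% to 9.56% in Rroid-deficient libraries. A strong element held a median of 1886 to 3583 reads per library and never fewer than 508, so that counting error was 1.7% to 2.3% at the median and at most 4.4%. This is the error of counting alone, without that of sorting, transposition and amplification. Library 5 did not share the position of the other Rroid-deficient libraries. The median deviation of the strong elements from the 6-library mean, on the log2 scale, was 0.04, 0.15 and 0.07 in wildtype 1 to 3, and -0.16, 0.01 and -0.10 in libraries 4, 5 and 6. Libraries 4 and 6 were also the shallowest.

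**Figure D1:**
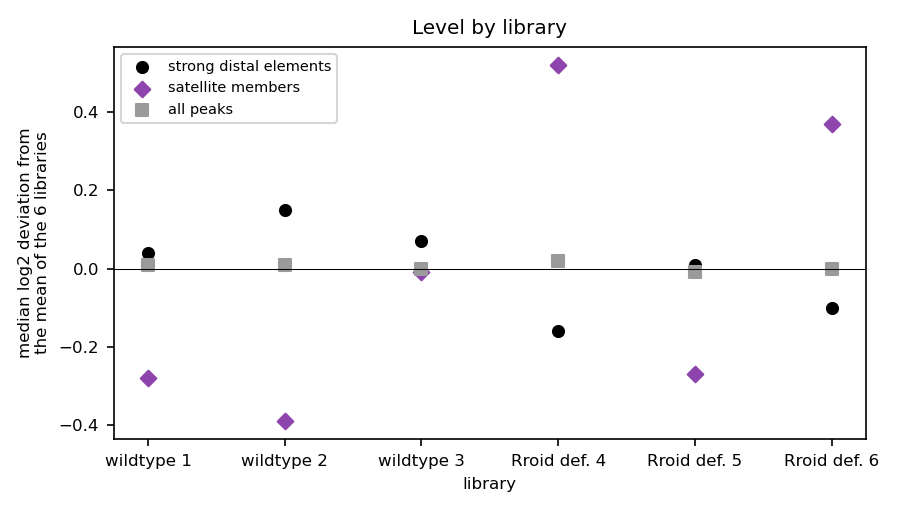
For each library (horizontal axis), the median distance on the log2 scale from the 6-library mean (vertical axis) of the 1101 strong distal elements, their 8 satellite members and all 51775 peaks. Rroid-deficient libraries 4 and 6 sit lowest for the strong elements (-0.16 and -0.10) and highest for the satellites (0.52 and 0.37), while library 5 sits at 0.01 and -0.27.

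The wildtype level chose the elements and is described without a test. It had a median of 2892 normalized reads, quartiles of 2367 and 3877 and a maximum of 76446, and 976 of the 1101 reached 2000 in every wildtype library. Near the limit, 157 elements had a wildtype mean under 2200. Just inside were an intronic peak of Rasl12 (1849, 2204 and 1952), a satellite peak near Rab10os (1958, 1763 and 2292) and a peak near Camk1g (1902, 2016 and 2104). Just outside were peaks near Amz2 (2183, 2101 and 1714), Myl6b (2137, 2020 and 1840) and Acot11 (2004, 1887 and 2101). The values on both sides of the limit overlapped between libraries, so membership there turns on single libraries.

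Strong elements were broad, which the rule favours because it takes the whole signal of a peak. Their median width was 1797 bp, from 538 to 6351, against 817.5 bp in the 34566 other distal peaks. Of these other peaks, the 1950 with a wildtype mean of 1000 to 2000 had a median of 1420.5 bp. It was 1673 bp in the 4677 peaks that were equally strong but within 5 kb of a start site. Per kb of peak, the median wildtype signal was 1745 in strong distal elements, 136.1 in other distal peaks and 2112 in the strong peaks near start sites. The spread between replicates, as the median SD on the log2 scale, was 0.10 in wildtype and 0.10 in Rroid-deficient libraries for strong elements, and 0.21 and 0.20 for other distal peaks, which hold fewer reads.

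The median distance to the start site was 23.0 kb, with quartiles of 11.9 and 48.6 kb, and 27.7 kb in the other distal peaks. Over 100 kb away lay 103 elements (9.36%). The farthest was a peak 1197094 bp from Lrrc4c, then peaks 756751 bp upstream of Megf9, 569200 bp from Mnd1-ps (in intron 3 of Fhit), 489686 bp from Bnc2 and 428373 bp upstream of 4930430F21Rik (in intron 3 of Ctnnd2). Of all strong elements, 45.0% lay upstream of the nearest start site, against 40.3% of other distal peaks. By HOMER's classes, 579 (52.6%) were intergenic and 479 (43.5%) intronic, 170 of the latter in a first intron. The remaining classes were exon (17), transcription termination site (14), 3' UTR (8), non-coding exon (3) and 5' UTR (1). For 477 intronic elements the host gene could be matched, and in 132 (27.7%) it was another gene than the nearest start site.

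A CpG island was annotated at 110 strong elements (9.99%), against 1.42% of other distal peaks and 14.1% of strong peaks near start sites. Repeats other than satellite and rRNA were annotated at 168 (15.3%), against 21.6% of other distal peaks. The elements had 886 nearest genes. A single element was assigned to 729 genes, 2 to 114 genes and at least 3 to 43 genes. The next strong element lay a median of 153 kb away, and 282 elements (25.6%) had one within 20 kb. Share by chromosome ran from 1.94% of the distal peaks of chromosome 3 to 3.62% of those of chromosome 11.

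Rroid-deficient cells had lower signal than wildtype at 384 of the 1101 strong elements (34.9%) and higher signal at 53 (4.81%), by limma with Benjamini-Hochberg adjusted p under 0.05. The remaining 664 were not called. Over all 51775 peaks, 25.8% were called, 13.8% higher and 12.1% lower. The median log2 change was -0.18 in strong elements (quartiles -0.31 and -0.02, range -1.65 to 0.71) and -0.01 over all peaks. Most changes were small. Elements called lower kept a median of 77.2% of the wildtype mean and those called higher reached a median of 131%, with a median standard error of 0.09 on the log2 scale. A fall of at least 1.5-fold was called at 60 elements and a rise of that size at 7, while 8 fell at least 2-fold and 0 rose that far. Since strong wildtype signal chose these elements and is also one side of the comparison, the counts describe the elements and are read no further.

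The groups did not overlap at 579 strong elements (52.6%), 491 of them lower and 88 higher in Rroid-deficient libraries. Over all peaks the groups did not overlap at 40.1%, 20% higher and 20.1% lower. Of the called elements, 375 of 384 lower and 47 of 53 higher ones had groups that did not overlap.

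**Figure D2:**
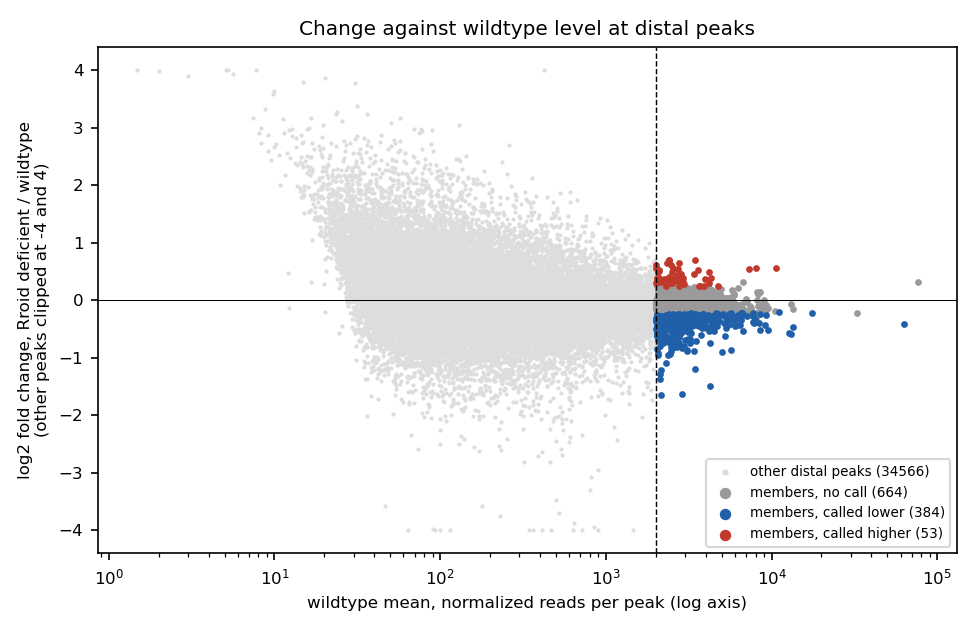
Log2 change, Rroid deficient over wildtype (vertical axis), against the wildtype mean in normalized reads (horizontal log axis) for the distal peaks, with the 1101 strong elements coloured by their call, the other peaks in light grey (clipped at -4 and 4) and a dashed line at the limit of 2000. The 384 elements called lower reach down to -1.65 and the 53 called higher up to 0.71, with a median of -0.18 for all of them.

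The counts moved with the libraries and the choice of elements. Without wildtype 2, 49 elements were higher and 243 lower, without library 4, 51 and 246, and without library 6, 34 and 236. Without libraries 4 and 6 together, an alternative chosen after the data were seen, 40 were higher and 113 lower, with a median of -0.08. Scaling each library to its total reads in peaks gave 102 higher and 348 lower, and loess normalization by abundance gave 134 and 325. The share of lower among called elements was thus 87.9% with the deposited scaling, 77.3% with total reads and 70.8% with loess. Distal peaks chosen instead by a mean of at least 2000 in the Rroid-deficient libraries numbered 1005, of which 152 (15.1%) were higher and 215 (21.4%) lower, with a median of -0.08. The cause of these differences was not tested.

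**Figure D3:**
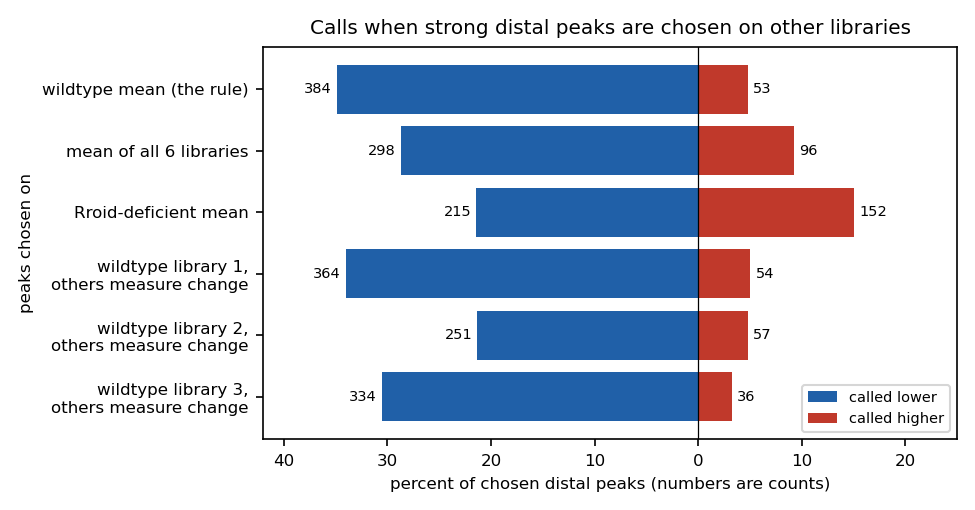
Percent of the chosen distal peaks called lower (bars to the left) or higher (bars to the right) in Rroid-deficient cells by limma (horizontal axis, counts printed at the bars) under each way of choosing strong peaks (vertical axis). Choosing on the wildtype mean gives 53 higher and 384 lower, and choosing on the Rroid-deficient mean gives 152 higher and 215 lower.

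Both choices shared 868 peaks, which are 78.8% of the strong elements and 86.4% of the 1005. The Rroid-deficient mean was under 2000 at 233 strong elements, and 169 of these were called lower, but only 5 dropped below 1000. A Rroid-deficient mean of at least 2000 with a wildtype mean under 2000 was found at 137 distal peaks, of which 99 were called higher and 8 had a wildtype mean under 1000. Most strong elements therefore stayed strong by the same limit in both genotypes.

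By wildtype level, the share called lower was 34.8% at 2000 to 2500 (356 elements), 34.8% at 2500 to 3000 (247), 37.9% at 3000 to 4000 (248), 29.8% at 4000 to 6000 (171) and 36.7% above 6000 (79). By distance, the share was 30.8% at 5 to 10 kb (211 elements) and 42.7% beyond 100 kb (103), with 37.4%, 32.4% and 36.2% in between. These bins were not tested against each other. In the 1950 distal peaks with a wildtype mean of 1000 to 2000, 664 (34.1%) were lower and 206 (10.6%) higher. In the strong peaks near start sites, 644 (13.8%) were lower and 85 (1.82%) higher, with a median of -0.10.

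St5 encodes a DENN-domain exchange factor for Rab GTPases, and its element had the largest called fall. The element at chr7:116731284-116733480 (mm9) lies in intron 1 of 19, 27700 bp from the start site. Its signal was 1842, 2215 and 2435 in wildtype and 674, 766 and 615 in Rroid-deficient libraries. All 3 Rroid-deficient values lay far below the lowest wildtype value, and the log2 change was -1.65 (limma, Benjamini-Hochberg adjusted p = 3.66e-08). Almost as large was the fall at chr17:56798724-56800687, upstream of Ranbp3, a cofactor of nuclear export, inside intron 18 of 21 of Catsperd. Wildtype libraries read 2738, 2983 and 2930 there and Rroid-deficient ones 843, 935 and 1018. The groups were wide apart, with a log2 change of -1.63 (limma, adjusted p = 6.2e-09).

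Adrb1 encodes the beta-1 adrenergic receptor. The element 34913 bp from its start site, at chr19:56830459-56833091, is intergenic and was the strongest of the large falls. It read 4527, 4276 and 3954 in wildtype against 1305, 1606 and 1668, and every Rroid-deficient value was under the lowest wildtype value. The log2 change was -1.48 (limma, adjusted p = 2.39e-08). In intron 5 of 18 of Gfpt2, an enzyme that opens the hexosamine pathway, an element at chr11:49624280-49625919 read 2022, 2284 and 2019 against 745, 963 and 887, with a log2 change of -1.29. An element in exon 9 of 29 of Atp13a2, a lysosomal transport ATPase, read 2120, 2285 and 2093 against 935, 1014 and 863 (log2 change -1.21). Neither pair of groups overlapped. The 10 largest falls were chosen among called elements without overlap of groups, so their separation follows from that choice. Their calls in other fits come from the same libraries and are a description. The other falls among the 10 largest were nearest to Gm2176 (-1.38), Mir29b-1 (-1.19), Ttll11 (-1.10), Rab37 (-0.95) and Capza3 (-0.95). All 10 were called in each of the 15 fitted settings, which include leaving out any library and leaving out libraries 4 and 6 together.

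**Figure D4:**
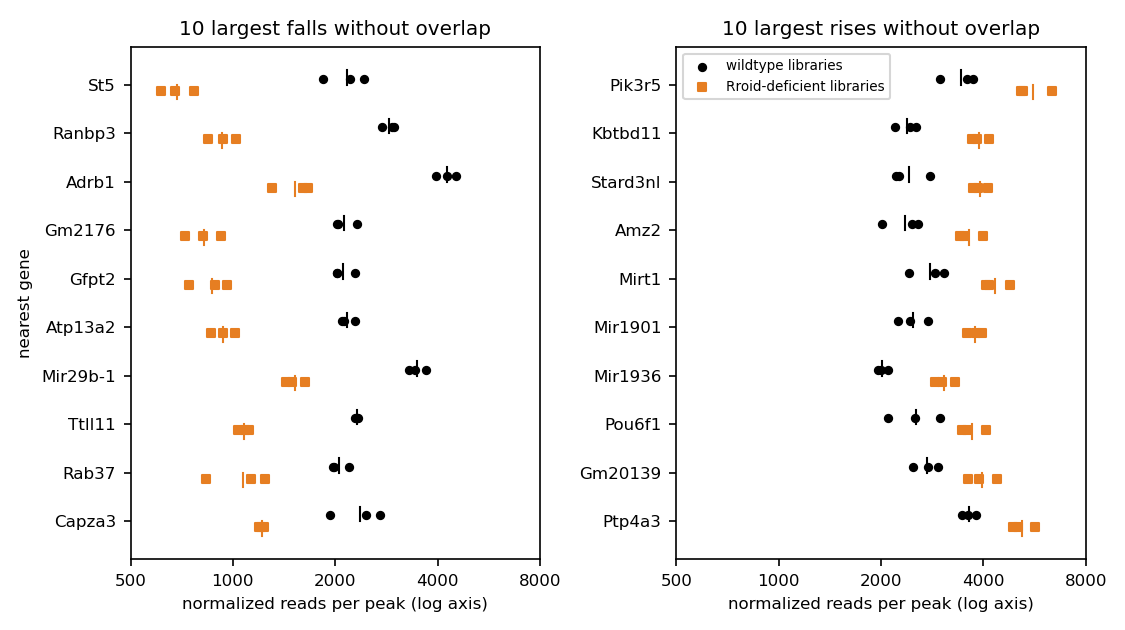
Normalized reads per peak (horizontal log axis) in each library at the 10 largest called falls and the 10 largest called rises among elements whose groups do not overlap, by nearest gene (vertical axis), with ticks at the group means. By this choice, Rroid-deficient squares lie left of all wildtype points in the falls, as at St5 (674, 766 and 615 against 1842 to 2435), and right of them in the rises, as at Pik3r5 (5169 to 6368 against 2987 to 3721).

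Rises were smaller than the largest falls. As for the falls, the separation of the 10 named here follows from their choice, and their calls in other fits are a description. They are the largest among called elements without overlap of groups. Called satellite elements with overlap, near Rab10os (0.57), Mir101c (0.56 and 0.55) and 4933422A05Rik (0.55), rose as far as some of them and are given with the satellites. Pik3r5 encodes the p101 regulatory subunit of phosphoinositide 3-kinase gamma. The element in its first of 18 introns, chr11:68263853-68267317, read 3576, 3721 and 2987 in wildtype and 5169, 6368 and 5239 in Rroid-deficient libraries. No value of one group reached the other, and the log2 change was 0.71 (limma, adjusted p = 4.92e-05). A second Pik3r5 element, 10090 bp from the start site, was not called (-0.16). Kbtbd11, a kelch-repeat protein, has an element in its second of 2 exons, chr8:15026631-15029190, with 2538, 2429 and 2204 against 3832, 4146 and 3707. The groups were separate and the log2 change was 0.71 (limma, adjusted p = 1.2e-05).

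Stard3nl encodes a late-endosome protein and lies next to Trgc4, a constant-region gene of the T-cell receptor gamma locus, in the RefSeq order. The element at its termination site, chr13:19447773-19450487, read 2790, 2258 and 2212 against 3737, 4119 and 3869, again without overlap (log2 change 0.70). Further rises were nearest to Mirt1 (0.64), Amz2 (0.64), Mir1901 (0.62), Mir1936 in intron 2 of the inositol phosphate kinase gene Itpk1 (0.60), Pou6f1 (0.56), Gm20139 (0.54) and Ptp4a3 (0.52). Near Amz2, the element that rose (2571, 2466 and 2010 against 3424, 3983 and 3521) lies beside the peak just under the limit of 2000, which was called lower (-0.44, 1452, 1646 and 1317 in Rroid-deficient libraries). All 10 rises were called in each of the 15 settings.

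Lists of genes are given next by nearest gene, each with the count over all peaks of its genes, weak and promoter peaks included. For comparison, 34.9% of all 1101 strong elements were lower and 4.81% higher. A count of 0 higher in a list of 12 or 13 elements is near that share. Over all 51775 peaks, 12.1% were lower and 13.8% higher. By nearest gene, 41 strong elements belonged to 22 genes of the list of NK and lymphoid transcription factors. Of these, 19 were lower and 1 was higher, with a median log2 change of -0.23. Over all 787 peaks of this list more were higher (153) than lower (135), as was the case over all 51775 peaks. Without libraries 4 and 6 the lower count was 4, and without wildtype 2 it was 11. Runx3, which drives cytotoxic lymphocyte genes, had 5 elements over 103.0 kb, of which 4 fell. The strongest of them, 40191 bp upstream, read 4088, 4728 and 4154 against 2928, 3921 and 3378, with every Rroid-deficient value below wildtype (log2 change -0.35). The element in intron 2 of 5 read 2263, 2888 and 2052 against 1957, 2564 and 2203, which overlapped (-0.09, not called). The call of the element at 40191 bp was lost without wildtype 2, library 4 or library 6, and all 4 calls were lost without libraries 4 and 6 together.

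Irf8, an interferon regulatory factor that NK cells use for maturation and antiviral responses, had 4 elements over 85.6 kb and 3 fell. At 50662 bp from its start site the signal was 5108, 5634 and 5037 against 2978, 3805 and 3486. These groups lay apart (log2 change -0.63, limma adjusted p = 7.99e-05), and the call held in all 15 settings. Nfil3, required for NK development, had 3 elements. The one 84520 bp upstream, chr13:53160281-53161575, read 1980, 2185 and 2040 against 951, 1224 and 1141, without overlap, a log2 change of -0.91 (limma, adjusted p = 6.64e-06). A stronger element 20272 bp upstream of Nfil3 fell less (-0.48) and the third, 17763 bp upstream, was not called (-0.22).

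Tbx21, which encodes T-bet, had 1 strong element, 9180 bp upstream, at 2040 in wildtype and 1349 in Rroid-deficient means (-0.62, lower). Eomes, the other T-box factor of NK cells, had 1 at 10034 bp, which was not called (3284 against 3073, -0.09). Single elements near Myb (-0.57), Bcl11b (-0.37), Foxo3 (-0.33) and Ikzf1 (-0.32) were also lower, and 1 near Foxo1 was the only higher one (2139 against 2658, 0.31). The mRNA-decay factor Zfp36l2 had a strong element 5717 bp from its start site (8148, 9059 and 8279 against 6682, 7761 and 7128, -0.24) and one in intron 34 of 37 of the neighbouring Thada (2995, 3008 and 2886 against 1658, 1805 and 1674, -0.79). Both were lower without overlap, but only the second was called without libraries 4 and 6. The call at 5717 bp was also lost without wildtype 2, library 4 or library 6, and with loess normalization. The strongest element of the list, near Bach2, was not called (9212, 10002 and 9310 against 8239, 9278 and 8584, -0.13). Nor was the third strongest, near Klf2 in an intron of Eps15l1 (7219, 7527 and 7140 against 5799, 7207 and 6432, -0.18). The second strongest was the lower one of Zfp36l2 at 5717 bp. Zfp36l2 is counted in this list although it is an mRNA-decay factor. Tbx21, Eomes, Myb, Bcl11b, Foxo3, Ikzf1 and Foxo1 were singled out after their values were seen.

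Cytotoxicity and secreted-effector genes had 12 strong elements at 8 genes, 10 of them lower and 0 higher by limma, with a median of -0.34. Over all 183 peaks of the list, 20 were higher and 64 lower. The higher count was also 0 at an unadjusted p under 0.05, by edgeR and by DESeq2. By limma without libraries 4 and 6, 2 were lower, and without wildtype 2, 7. Ccl3, the chemokine MIP-1 alpha, stood out with an element 20009 bp from its start site, chr11:83442009-83443733. It read 4861, 5453 and 4710 against 2321, 3060 and 2695. The groups lay far apart, and the log2 change was -0.90 (limma, adjusted p = 3.93e-06). The nearer Ccl3 element, at 9122 bp, read 5625, 6281 and 5036 against 3757, 4849 and 4096, also without overlap (-0.42). An element 28946 bp from Ifng, the interferon gamma gene, read 4555, 4353 and 4227 against 3126, 3650 and 3364 (-0.38, no overlap). Fasl, the ligand of the death receptor Fas, had 3 elements, of which the strongest read 6171, 6253 and 6261 against 4874, 5663 and 5207 (-0.25, no overlap). The call of that strongest Fasl element was lost without wildtype 2, wildtype 3, library 4 or library 6, and with loess normalization. The calls of the Ifng element and of the nearer Ccl3 element were lost without 4 and 6 together.

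An element in intron 5 of 8 of Ctsd, a lysosomal protease, read 3471, 3604 and 3392 against 2427, 2756 and 2696 (-0.41, no overlap). Single elements near Serpinb9, the granzyme B inhibitor (-0.43), Ctsc, which activates granzymes (-0.33), and the chemokine gene Xcl1 (-0.24) were lower too. The perforin gene Prf1 had 1 element, 36593 bp away, at 2704 against 2352 (-0.20, not called).

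NK receptor and adaptor genes had 13 strong elements at 6 genes, 7 lower and 0 higher by limma, with a median of -0.29. Over all 211 peaks of the list, 24 were higher and 69 lower. The higher count was again 0 at an unadjusted p under 0.05, by edgeR and by DESeq2. Without libraries 4 and 6 limma called 1 of them lower, and without wildtype 2 it called 3. Klrb1c encodes NK1.1, on which the cells were sorted. All 4 of its elements, over 43.7 kb, were lower. The strongest, chr6:128709915-128715310, read 5970, 6845 and 5740 against 4012, 5081 and 4663 (-0.43, no overlap). The largest fall was 7655 bp upstream, where 2503, 2621 and 2477 stood against 1504, 1839 and 1643. This was the element that stayed called without libraries 4 and 6 (-0.61, limma adjusted p = 0.000107, and 0.024 without them). The neighbouring receptor gene Klrb1b had 3 elements, 2 of them lower (-0.31 and -0.36). Klri2, a lectin-like receptor gene, had an element with 5573, 5558 and 4878 against 3989, 5127 and 4334. These groups overlapped, and the element was not called (-0.26). Both Tigit elements were not called, and that at 26237 bp upstream had nearly equal means (1972, 2208 and 2064 against 2074, 2163 and 2002).

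Cytokine receptor and JAK-STAT genes had 12 strong elements at 9 genes, 6 lower and 0 higher by limma (median -0.25). Over all 287 peaks of this list more were higher (64) than lower (38). At an unadjusted p under 0.05, 1 was higher and 8 were lower, while edgeR gave 0 and 6 and DESeq2 0 and 4. Without libraries 4 and 6, limma called 0 of them lower, also 0 at an unadjusted p under 0.05, and without wildtype 2 it called 2. Il18rap, a subunit of the interleukin 18 receptor, read 3408, 3375 and 3056 against 2230, 2900 and 2575 (-0.36). An element 11667 bp from the start site of Stat4, the signal transducer of interleukin 12, read 2366, 2620 and 2605 against 1705, 2081 and 1913 (-0.42). Neither pair overlapped. A stronger Stat4 element, at 26962 bp, had overlapping groups and was not called (means of 2814 and 2336, -0.27). The element 16498 bp upstream of Il2rb, a receptor subunit for interleukins 2 and 15, was the strongest of the list and was not called (6151, 7072 and 5568 against 5170, 6745 and 5866, -0.08).

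Migration and adhesion genes had 17 strong elements at 13 genes, 7 lower and 2 higher (median -0.17; 1 lower and 2 higher without libraries 4 and 6, and 3 lower without wildtype 2). All 303 peaks of the list included 49 higher and 65 lower ones. The integrin gene Itgam, a maturation marker of NK cells, had an element with 2638, 3050 and 2659 against 1675, 2059 and 1799 (-0.60, no overlap), called in all 15 settings. Itga2, the integrin CD49b, read 4150, 3550 and 3524 against 2659, 2855 and 2937 (-0.41). Rising instead, the element near Selplg, the P-selectin ligand gene, at the termination site of Coro1c, read 2118, 2278 and 1903 against 2833, 3140 and 3030 (0.52, no overlap). The other higher element was near S1pr4, a sphingosine phosphate receptor gene (2977 against 3641, 0.29). Receptor signalling genes had 23 elements at 15 genes, 10 lower and 2 higher (median -0.20; 2 lower and 2 higher without libraries 4 and 6, and 8 lower without wildtype 2). All 499 peaks of that list included 76 higher and 85 lower ones. Within 1 gene the directions differed at Prkch, a protein kinase C gene, where the element in intron 1 was lower (5579, 6138 and 5860 against 4460, 5071 and 4656, -0.31) and one 130885 bp from the start site was higher (2078 against 2918, 0.49). Fyn (4092, 4118 and 3772 against 2598, 3006 and 3019, -0.48) and Pik3r1 (3086, 3199 and 3221 against 2095, 2305 and 2301, -0.51) were lower without overlap and in all 15 settings.

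Survival, AP-1 and immediate-early genes had 25 elements at 16 genes, 9 lower and 4 higher (median -0.16; 3 lower and 3 higher without libraries 4 and 6, and 8 lower without wildtype 2). Over all 368 peaks of this list more were higher (64) than lower (54). Tnfrsf1b, the second receptor of tumour necrosis factor, had 4 elements within 22.2 kb that did not move alike. The element 10901 bp from its start site rose (3666, 3150 and 3377 against 4856, 4601 and 4440, 0.45), those at 16814 and 25648 bp fell (-0.34 and -0.32), and that at 5569 bp was not called (-0.13). The rise was called in all 15 settings. Near the antiproliferative gene Btg1, an element 265899 bp upstream read 2265, 2332 and 2333 against 1423, 1619 and 1488 (-0.62, no overlap). Fos had a lower element (5718, 6417 and 5870 against 4378, 5105 and 4690, -0.35) and another, 12986 bp from its start site, that was not called (-0.08). The element of Junb was not called (6100, 6044 and 5561 against 6258, 6782 and 5782, 0.09). The strongest element of the list, 6860 bp upstream of Nr4a3, read 12515, 13595 and 13152 against 12171, 13303 and 12135 and was not called (-0.06). Higher elements also lay near Nr4a1 (0.51), Nfkb1 (0.39) and Fosb (0.25). A stronger Nr4a1 element, 20083 bp upstream, was not called (means of 5297 and 4646, -0.19).

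**Figure D5:**
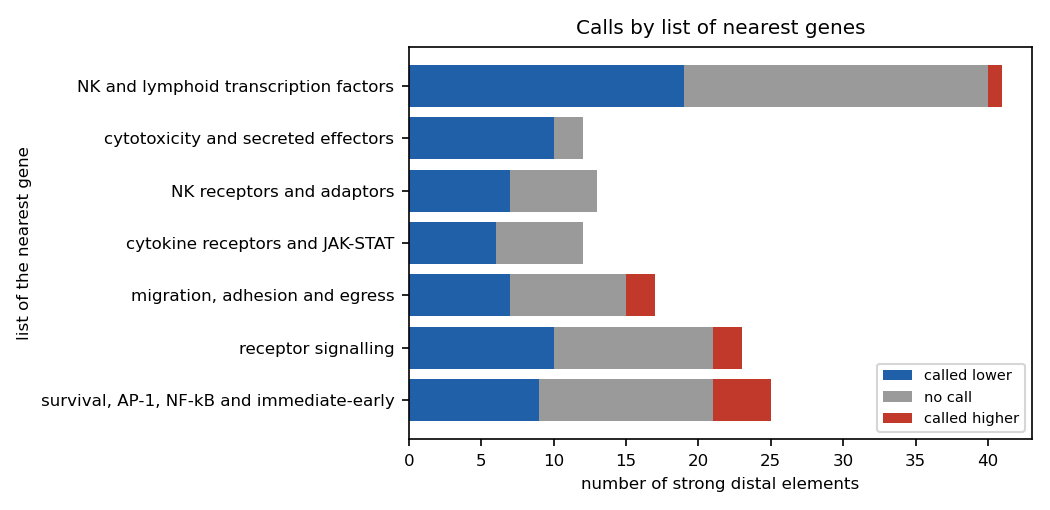
Number of strong distal elements (horizontal axis) whose nearest gene is in each list (vertical axis), split into those called lower, not called and called higher by limma. The share called lower runs from 9 of 25 elements (36.0%) at survival and immediate-early genes to 10 of 12 (83.3%) at effector genes. The lists of effector, receptor and cytokine receptor genes hold no higher call. All 1101 strong elements had 34.9% lower and 4.81% higher calls.

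T-cell and myeloid marker genes were nearest to 0 strong elements. B-cell marker genes were nearest to 1, a CpG island 65036 bp upstream of Cr2 (7777, 8549 and 9332 against 6046, 5441 and 6472, -0.51, lower). All 63 peaks of the T-cell list included 23 higher and 3 lower ones. The 24 peaks of the B-cell list included 4 higher and 3 lower, and the 22 of the myeloid list 5 higher and 1 lower. The 144 elements of all lists had 69 lower and 9 higher calls (median -0.23), and the 957 others 315 lower and 44 higher (median -0.16).

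Of the 157 genes with at least 2 strong elements, 84 had only lower calls, 12 only higher calls, 4 both and 57 none. Around Mir29b-1, elements at 9691, 16473 and 51031 bp upstream fell (-0.33, -0.81 and -1.19) and that at 63044 bp did not (0.07). The third read 3296, 3695 and 3422 against 1430, 1494 and 1632, with no overlap (limma, adjusted p = 6.25e-08). Dad1, an oligosaccharyltransferase subunit gene that follows the T-cell receptor alpha constant gene Trac in the RefSeq order, had 4 elements, 3 lower, the largest fall being 2725, 2981 and 2630 against 1452, 1877 and 1688 (-0.74). The 5 elements nearest to Mir6364 all lay in introns of Prex1, a Rac exchange factor gene, and 1 was lower. Galnt2, a glycosyltransferase gene, had 4 elements with 1 lower, and Chsy1, a chondroitin synthase gene, 4 with 2 lower. Near Id2 itself, the 2 strong elements within 500 kb lay 93.98 and 112.8 kb from its promoter peak. The first read 3221, 3619 and 3336 against 2945, 3458 and 2830, which overlapped (-0.14, not called), and the second 1945, 2410 and 2283 against 1430, 1766 and 1585, which did not (-0.47, lower, not called without libraries 4 and 6).

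The element with the highest wildtype signal, far from Lrrc4c, read 73750, 66836 and 88751 in wildtype and 113784, 70746 and 103860 in Rroid-deficient libraries, where library 5 fell within the wildtype range (not called). Near Esp38, beside the ribosomal RNA sequence Rn18s-rs5 in the RefSeq order, a CpG-annotated peak read 51800, 72560 and 64560 against 47552, 42510 and 50628 (-0.42, lower in all 15 settings). The 10 elements nearest to Pisd-ps3 and Sfi1 all lay within introns of Sfi1, and 7 were lower. Their lowest value was in library 5 throughout, for example 12428, 11624 and 14266 against 9734, 6674 and 9532 at 30310 bp from Pisd-ps3 (-0.58). Among the 12 highest named were also elements near Cic (16360, 18645 and 17503 against 14131, 15850 and 14834, -0.23, lower) and near Fbrs (10144, 11469 and 9838 against 8276, 10048 and 9226, -0.19, not called). The Cic call was lost without wildtype 2, wildtype 3, library 4 or library 6, and with loess normalization. How reads of repeated sequence were placed is not given in the sources used here.

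Satellite repeats were annotated at 8 strong elements, of which 4 were higher and 0 lower by limma (also 0 at an unadjusted p under 0.05, by edgeR and by DESeq2), with a median of 0.43. Without libraries 4 and 6, 2 of the 8 were lower at an unadjusted p under 0.05. A satellite peak near Mir101c read 10504, 9155 and 12351 in wildtype and 19512, 10831 and 17886 in libraries 4, 5 and 6. Library 5 was within the wildtype range there and the others above it. The summed satellite signal was 45527, 41431 and 55035 in wildtype and 79109, 45055 and 71778 in Rroid-deficient libraries. Each of the 4 calls was lost without library 4 and without library 6. Over the whole table, 50 satellite peaks included 25 higher and 0 lower ones by limma. At an unadjusted p under 0.05, 2 were lower, or 6 without libraries 4 and 6, and edgeR and DESeq2 called 0 lower. Without satellite and rRNA members, chosen after the data were seen, 49 strong elements were higher and 384 lower.

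The nearest gene's own promoter peak, within 1 kb of its start site, was measured for 767 strong elements and was not used to choose them. A promoter peak was counted once for each element of its gene, so genes with several elements weigh more here. Of the 274 lower elements among these, 81 (29.6%) had a lower promoter peak, 10 a higher one and 183 neither. Of the 37 higher elements, 6 had a higher promoter peak, 5 a lower one and 26 neither. The higher elements near Mir101c share the same promoter peak. Of the 456 elements without a call, 34 had a higher promoter peak and 65 a lower one. Counted once per gene, the promoter peaks of the 609 nearest genes included 109 lower (17.9%) and 43 higher (7.06%) ones. Over all 11574 genes with a promoter peak, also counted once per gene, 998 (8.62%) were lower and 1203 (10.4%) higher. Element and promoter come from the same libraries, so the shares are a description.

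The promoters printed at the start belong to genes where both fell. At Adrb1 the promoter peak read 1321, 1108 and 931 in wildtype and 458, 454 and 382 in Rroid-deficient libraries, with no overlap (-1.37, limma adjusted p = 1.09e-06). At St5 it read 448, 528 and 593 against 265, 235 and 212 (-1.13), and at Ccl3 2838, 3251 and 2442 against 1630, 2065 and 1607 (-0.69). Both were separate as well. The Fasl promoter peak fell more (1671, 1813 and 1811 against 1048, 1078 and 1175, -0.68) than its strongest distal element. At Kbtbd11 both rose, the promoter peak from 571, 625 and 627 to 1351, 1510 and 1218 (1.16). The Ranbp3 promoter peak was not called (5013 against 4373 as means, -0.20), nor were those of Atp13a2 (0.06), Nfil3 (-0.01) and Pik3r5 (0.22), whose elements were. At 15 elements the promoter was called in the opposite direction, as at Stard3nl, where the element rose and the promoter peak fell (3206, 3782 and 4186 against 2724, 3002 and 3030, -0.34).

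Among elements without a call, the 5 whose log2 change was nearest to 0 were near 2010111I01Rik, Itgb2, Tigit, Glipr2 and Foxn3, with a Rroid-deficient mean of 99.8% to 100.1% of wildtype. Itgb2, the shared subunit of the beta-2 integrins, read 2140, 2263 and 2107 against 2156, 2335 and 2025. A p-value that misses the limit does not show that such elements are equal in both genotypes.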

How the data were processed

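ATAC-seq was run on 6 libraries, 3 wildtype and 3 Rroid deficient. The submitters' processing notes name the build mm9, the peak tools MACS2 2.1.0, DiffBind, HOMER and R 3.1.1, and the read tools Trimmomatic 0.32, bcl2fastq 2.16.0 and BWA. Settings, cut-site shift and duplicate removal are not given in the sources used here. As values, the authors deposited 1 normalized signal value per consensus peak and library, with HOMER's nearest gene and class per the file headers. The deposited peak width and distance to the start site were read as a score in bp. Within a tolerance of 0.01, 100% of the signal values came out as whole reads over a factor that each library has of its own, so reads could be recovered. The width equals end minus start plus 2.

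The main test was limma 3.58.1 (R 4.3.3) with its trend option, run on log2(value + 1), a pseudocount of 1, over all 51775 peaks, with Benjamini-Hochberg adjustment and calls at an adjusted p under 0.05. On this scale the changes of low peaks are understated. No peak was filtered. In simulated data, 6 of 34 strong distal elements changed by 1.25-fold, 32 of 33 changed by 1.5-fold and 33 of 33 changed by 2-fold were called, with 5 false calls in 51775 peaks. Few peaks were changed in the simulation, so its shares do not carry over to the real data, where 25.8% of peaks were called. The elements, the 10 gene lists and the marker lists were chosen with earlier results of these data known. Elements were named by rule: the 12 highest in wildtype, the 10 largest called falls and rises without overlap of groups, the 3 highest and 2 smallest p per list, the 6 genes with most elements, the 3 on either side of 2000, the 5 farthest, the 5 nearest to 0 and those within 500 kb of Id2, with at most 1 element per gene and rule. Genes with 4 or more elements, satellite and rRNA elements and the genes said to be singled out, as well as single list genes given by means only, were added after values were seen. Alternatives were other scalings (DESeq2 1.42.0 size factors, total reads, loess), pseudocounts and filters, edgeR 4.0.16 and DESeq2 on recovered reads, each library left out, and other rules for choosing elements. Motifs within the elements were not counted, since no mm9 genome was used here.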

Additional observations from a re-analysis of the deposited data

How the results depend on the processing

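The counts of 53 higher and 384 lower strong elements, and their median of -0.18, kept their direction under every alternative run, and no named element was called in the opposite direction. edgeR on recovered reads gave 53 and 384 and DESeq2 50 and 371. Leaving out each library in turn gave 34 to 51 higher and 236 to 486 lower elements and medians of -0.22 to -0.14. Without Rroid-deficient libraries 4 and 6 the lower count was 113 and the median -0.08. Total reads gave 102 higher. Loess gave 134 higher and a median of -0.09. At adjusted p 0.01, 28 were higher and 222 lower. Choosing elements on all 6 libraries gave 96 higher, and choosing on the Rroid-deficient mean 152 higher, 215 lower and a median of -0.08. Choosing on wildtype 2 and measuring the change with the other wildtype libraries gave 251 lower of 1179 elements. Leaving out wildtype 2 gave 243 lower of the 1101 strong elements. Other sets of elements have other sizes: a mean of at least 3000 gave 14 higher and 174 lower of 498, at least 1000 gave 259 and 1048 of 3051, over 20 kb gave 30 and 214 of 609, and intergenic gave 23 and 206 of 579. Of the 87 named called elements, 37 were called in all 15 fitted settings and 50 were lost in at least 1. The cause was not tested. No paired analysis was possible because the Rroid-deficient columns carry numbers that match no sample label. In simulated data, 17.6% of changes of 1.25-fold were recovered. Few peaks were changed there, so this share does not carry over to the real data. In the real data, the weakest lower call had a log2 change of -0.21 and the weakest higher call 0.24.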
